A study of Sus scrofa with 9 samples.

Results

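The genes described here carry the type I interferon signal from the cell surface to the nucleus and switch it off again. They are the receptor chains *IFNAR1* and *IFNAR2*, the kinases *JAK1* and *TYK2*, the transcription factors *STAT2*, *IRF9* and *IRF1*, and the inhibitors *SOCS1* and *USP18*. These 9 genes were taken by symbol from a table of 16562 genes, and all 9 were present. All 9 had enough counts to be tested, and none had an estimated count that was not whole. They were followed in primary preadipocytes of the pig, fibroblast-like cells from which fat cells form, grown from the back fat of a female Rongchang piglet. In the overexpression group, cells had received an expression plasmid for lnc*PLAAT3*-AS, a long noncoding RNA transcribed antisense to the phospholipase gene *PLAAT3*. In the siRNA group they were transfected with an siRNA against it. The text of the study calls the control group negative and names a negative control construct, si-NC, for the cell assays done beside the sequencing, while the series lists the sequenced control as blank. Whether the sequenced control cells received si-NC is therefore not settled by these sources. No empty-plasmid library was analysed here. Cells of all 3 groups were induced with insulin, 3-isobutyl 1-methylxanthine and dexamethasone, and the labels place them at day 8 of differentiation. There were 3 libraries per group, all from cells of the same pig, so the p-values measure the spread between libraries from 1 animal.

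Type I interferons bind a receptor built from both IFNAR chains. The kinases TYK2 and JAK1, which sit on these chains, then phosphorylate STAT proteins, and STAT2 joins IRF9 in a complex called ISGF3 that turns on interferon-stimulated genes. Several of those genes encode parts of the pathway itself, so that a cell that has met interferon makes more of the signalling proteins, and also its inhibitors. USP18 blocks the receptor at the IFNAR2 chain and SOCS1 inhibits the kinases, and both are known as negative feedback.

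Bulk RNA was sequenced, and total counts lay between 16724902 and 17495882 per library. The RNA that was raised or targeted, lnc*PLAAT3*-AS, was not analysed here and could not check the labels. The labels name adipocytes, and the adipocyte markers were uneven. *ADIPOQ*, which encodes the fat cell hormone adiponectin, had 9 counts over the overexpression libraries, 0 over the siRNA libraries and 11 over the control libraries. The lipid-synthesis gene *SCD* averaged 704, 562 and 1019 CPM (counts scaled to a common library total, with TMM factors) in these groups. The lipase gene *LPL* averaged 83.9, 417 and 65.1 CPM, and the fatty acid carrier gene *FABP4* 13.5, 6.25 and 7.83 CPM. In the same order, *PPARG* averaged 5.53, 1.68 and 7.44 CPM and *CEBPA* 17.6, 5.63 and 15.4 CPM, so both were lowest after siRNA, where *LPL* was highest. Calls for the whole list are given with the other markers below. The 15 preadipocyte and fibroblast markers summed to 156980 to 159580 CPM in the overexpression libraries. Their sums were 104900 to 112890 CPM in the siRNA and 134140 to 136400 CPM in the control libraries. Much of each sum came from *COL1A1* (64807, 16795 and 48627 CPM after overexpression, after siRNA and in the control) and *FN1* (28175, 43756 and 37589 CPM). In the same order, *COL1A2* had 36388, 11117 and 19432 CPM and *COL3A1* 15049, 23654 and 12428 CPM. *COL1A1* and *COL1A2* were highest after overexpression and lowest after siRNA, and *FN1* was the reverse. *COL3A1* was lowest in the control. These genes differed in direction, so the sum does not follow the list as a whole. Overexpression libraries differed least among themselves. The variance between 2 of them was 1.41 to 1.60 times the sampling noise of their counts. It was 5.16 to 10.2 times among siRNA and 5.48 to 13.9 times among control libraries. Whether the overexpression libraries came from separate cultures was not tested. The p-values for overexpression may thus rest on a smaller spread than that between cultures.

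Per gene length, *USP18* was the member whose place among the others differed most between the groups. On the scale of the deposited FPKM values (counts scaled by gene length and library size), it led the members at 81.7 ± 0.665 FPKM in the overexpression group and 159 ± 5.03 FPKM in the siRNA group, and stood seventh at 17.6 ± 4.24 FPKM in the control (SD, n = 3 each). In the control *JAK1* was highest at 48.0 ± 4.97 FPKM, followed by *IRF9* at 41.1 ± 5.24 FPKM, and the ranges of these neighbours overlapped. *IRF1*, *IFNAR1* and *TYK2* came next in the control at 26.0 ± 0.597, 24.1 ± 2.67 and 22.8 ± 0.432 FPKM, and neighbours among them overlapped as well, as did *STAT2* (18.4 ± 2.09 FPKM) and *USP18*. In the siRNA group no 2 neighbours in the order overlapped, and in the overexpression group only *IRF1* (24.6 ± 1.06 FPKM) and *STAT2* (24.2 ± 0.788 FPKM) did. *IFNAR2* and *SOCS1* were the lowest members in every group. *SOCS1* had 2.57 ± 0.340 FPKM in the overexpression group, 5.19 ± 0.313 in the siRNA group and 2.36 ± 0.448 in the control.

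**Figure D1:**
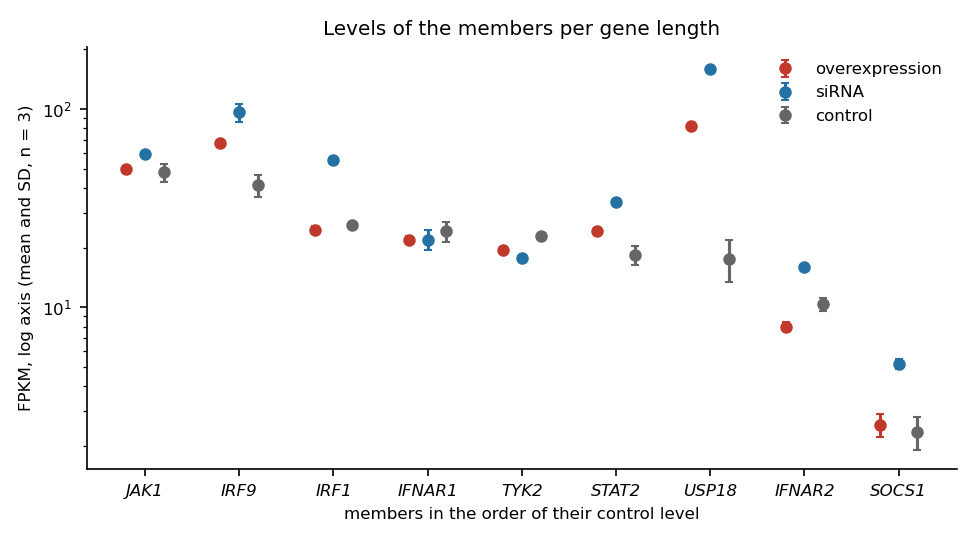
Levels of the 9 members as FPKM on a log axis, with points for group means and bars for the SD of 3 libraries, in the order of their control level. *USP18* stands at 17.6 FPKM in the control but above every other member in the overexpression and siRNA groups.

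Against the control, 3 members rose and 2 fell after overexpression, and 7 rose and 1 fell after siRNA. A gene was called at an adjusted p under 0.05 from edgeR's quasi-likelihood test, fitted over 12721 genes in all 9 libraries. By that rule 23.9% of tested genes were higher and 23.4% lower after overexpression, and 29.5% were higher and 29.9% lower after siRNA. The members' count after overexpression was thus near that of all genes, and their count of rises after siRNA was above it. The median log2 fold change of the members was 0.03 after overexpression and 0.89 after siRNA, beside 0.01 and 0.00 for all tested genes. Only *USP18* rose at least 2-fold after overexpression, as 2.61% of tested genes did. *USP18*, *IRF9*, *IRF1* and *SOCS1* did so after siRNA, against 7.67% of tested genes, and no member fell 2-fold in either comparison, as 1.89% and 7.52% of tested genes did. Counted by groups that did not overlap, 3 members were higher and 2 lower after overexpression, beside 28.6% and 28.5% of tested genes, and 7 were higher and 1 lower after siRNA, beside 30.7% each way. Both comparisons use the same control libraries. In bulk RNA, fewer cells of a type and less RNA per cell cannot be told apart.

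**Figure D2:**
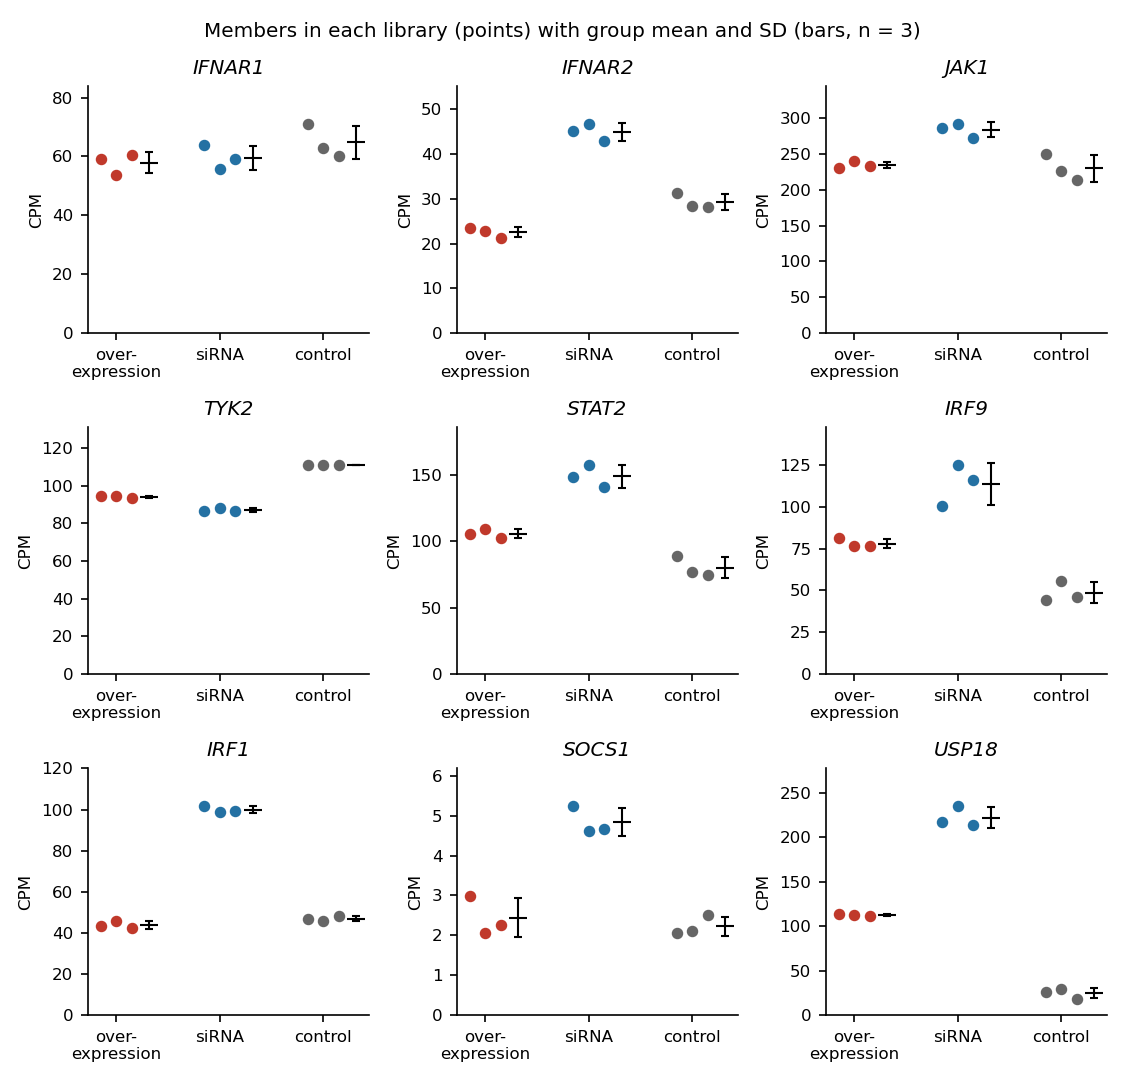
Each member in every library as CPM, with points for libraries and bars for the group mean and SD of 3 libraries. No pair of groups overlaps for *IFNAR2*, *TYK2*, *STAT2*, *IRF9* and *USP18*, while *JAK1*, *IRF1* and *SOCS1* stand apart in the siRNA libraries only, and *TYK2* is lower in both manipulated groups.

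Of the receptor chains, *IFNAR2* moved and *IFNAR1* did not pass. *IFNAR2*, the chain that holds JAK1 and the docking site of USP18, had 23.5, 22.7 and 21.3 CPM after overexpression, 45.1, 46.8 and 42.8 CPM after siRNA, and 31.3, 28.5 and 28.2 CPM in the control. All overexpression libraries thus lay below, and all siRNA libraries above, every control library. It fell after overexpression (-0.38 on the log2 scale, standard error 0.0750, edgeR adjusted p = 0.000309) and rose after siRNA (0.61, standard error 0.0708, adjusted p = 1.91e-07). *IFNAR1*, the chain that holds TYK2, had 59.1, 53.8 and 60.6 CPM after overexpression, 63.8, 55.7 and 59.3 CPM after siRNA, and 71.1, 63.0 and 60.2 CPM in the control. These values overlapped in all 3 pairs of groups. The log2 fold change of *IFNAR1* was -0.16 after overexpression (95% interval -0.32 to -0.01, adjusted p = 0.0717) and -0.12 after siRNA (95% interval -0.27 to 0.03, adjusted p = 0.163), both from edgeR. Without control replicate 3 it passed in both comparisons (-0.21, adjusted p = 0.0199, and -0.17, adjusted p = 0.0457). The ratio of *IFNAR2* to *IFNAR1* in FPKM was 0.371, 0.393 and 0.338 in the overexpression libraries, 0.661, 0.834 and 0.696 in the siRNA libraries, and 0.421, 0.420 and 0.457 in the control libraries.

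*IFNAR2*, *IL10RB*, *IFNAR1* and *IFNGR2* follow each other in this order along the pig genome in the RefSeq table of Sscrofa11.1, which was used for names and order only. *IL10RB* encodes a receptor chain shared by interleukin 10 and interferon lambda, and *IFNGR2* a chain of the interferon gamma receptor. *IFNGR2* had 70.1, 69.7 and 71.2 CPM after overexpression, 180, 181 and 189 CPM after siRNA, and 101, 102 and 107 CPM in the control, so its groups stood in the order of those of *IFNAR2*. It fell after overexpression (log2 fold change -0.55, adjusted p = 1.28e-07) and rose after siRNA (0.83, adjusted p = 2.56e-11, edgeR). *IL10RB*, looked up for its position after its values had been seen, had 9.94, 10.8 and 12.5 CPM after overexpression, 5.13, 6.11 and 4.19 CPM after siRNA, and 7.74, 8.23 and 10.1 CPM in the control. It moved the other way, with a log2 fold change of 0.35 after overexpression (adjusted p = 0.0326) and -0.76 after siRNA (adjusted p = 0.000137, edgeR). Its overexpression and control libraries overlapped (9.94 against 10.1 CPM), while its siRNA libraries lay below all control libraries. Neighbouring receptor genes thus differed in direction, with *IFNAR1* between *IL10RB* and *IFNGR2* showing no change that passed.

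**Figure D3:**
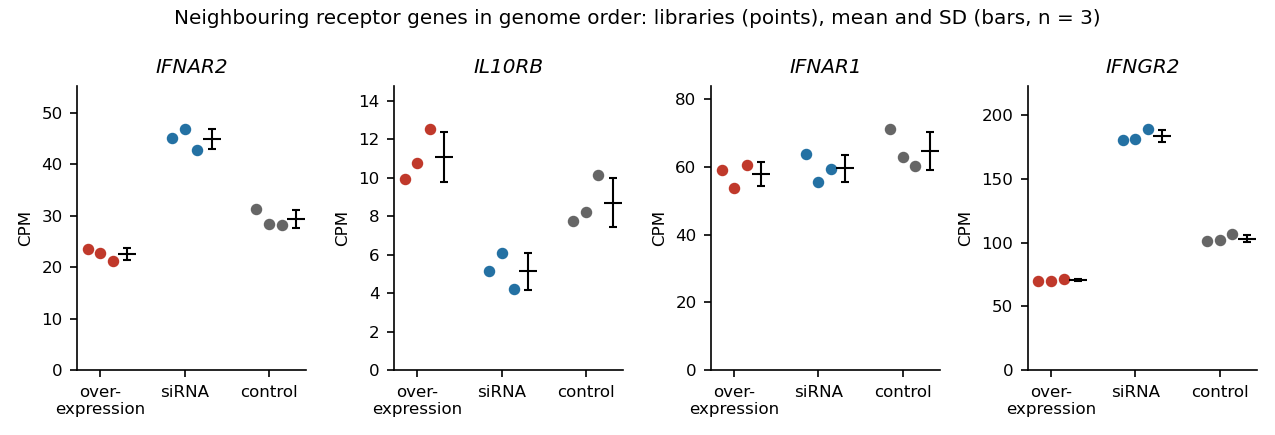
CPM of the 4 neighbouring receptor genes in genome order, with points for libraries and bars for the mean and SD of 3 libraries per group. *IFNAR2* and *IFNGR2* are highest in the siRNA libraries, *IL10RB* is lowest there, and the groups of *IFNAR1* overlap.

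Among the kinases, *TYK2* was lower in both manipulated groups. Its levels were 94.4, 94.5 and 93.6 CPM after overexpression, 86.8, 88.1 and 86.4 CPM after siRNA, and 111, 111 and 111 CPM in the control. No library of a manipulated group reached the control level. It fell by 0.24 on the log2 scale after overexpression (standard error 0.0533, adjusted p = 0.00108 from edgeR) and by 0.35 after siRNA (standard error 0.0535, adjusted p = 9.56e-06). The control libraries had an SD of 0.161 CPM for *TYK2*, smaller than the 2.54 CPM that counting alone gives at their depth, so this spread understates its error, and the fit draws on the spread of other genes. With the overexpression libraries summed to 1 the fall after overexpression did not pass (adjusted p = 0.0693). *JAK1*, which also serves many cytokine receptors outside the interferon family, had 231, 240 and 233 CPM after overexpression, 287, 293 and 272 CPM after siRNA, and 251, 227 and 214 CPM in the control. The siRNA libraries lay above all others, and the overexpression libraries lay inside the control range. *JAK1* rose after siRNA (log2 fold change 0.30, adjusted p = 0.000285, edgeR), and its change after overexpression was 0.03 (95% interval -0.10 to 0.16, adjusted p = 0.748). The ratio of *TYK2* to *JAK1* in FPKM was 0.384 to 0.398 in the overexpression libraries, 0.297 to 0.311 in the siRNA libraries and 0.435 to 0.514 in the control libraries.

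*STAT2* and *IRF9*, both subunits of ISGF3, rose in both manipulated groups and more after siRNA. *STAT2* had 105, 109 and 102 CPM after overexpression, 148, 158 and 141 CPM after siRNA, and 89.0, 76.6 and 74.8 CPM in the control. The groups stood apart from each other in all 3 pairs. Its log2 fold change was 0.40 after overexpression (standard error 0.0686, adjusted p = 8.03e-05, edgeR) and 0.89 after siRNA (standard error 0.0682, adjusted p = 3.04e-10). *IRF9*, the DNA-binding subunit of ISGF3, had 81.1, 76.6 and 76.3 CPM after overexpression, 100, 125 and 116 CPM after siRNA, and 44.0, 55.8 and 46.1 CPM in the control. Its groups did not overlap either, although it varied more between the siRNA libraries (SD 12.5 CPM) and between the control libraries (SD 6.27 CPM) than between the overexpression libraries (SD 2.69 CPM). It rose by 0.68 on the log2 scale after overexpression (standard error 0.0866, adjusted p = 3.75e-06) and by 1.23 after siRNA (standard error 0.0858, adjusted p = 1.99e-10), both from edgeR.

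*STAT2* rose 1.32-fold and 1.86-fold, and *IRF9* 1.60-fold and 2.34-fold, in the comparisons of overexpression and of siRNA with the control. *STAT3*, which serves interleukin 6 and related cytokines and is not a member, did not pass in either (log2 fold change -0.07 after overexpression, adjusted p = 0.423, and 0.04 after siRNA, adjusted p = 0.635, edgeR).

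*IRF1* rose after siRNA alone. This transcription factor is induced by interferon gamma and, through NF-kB, by inflammatory cytokines. It had 43.2, 45.9 and 42.3 CPM after overexpression, 102, 98.8 and 99.2 CPM after siRNA, and 46.7, 45.6 and 48.1 CPM in the control. The siRNA libraries were about the same as each other and far above all others, while the overexpression and control libraries overlapped. The log2 fold change was 1.10 after siRNA (standard error 0.0594, adjusted p = 9.96e-13, edgeR) and -0.09 after overexpression (95% interval -0.22 to 0.03, adjusted p = 0.218). The difference between the 2 manipulated groups was tested directly, and *IRF1* was lower after overexpression than after siRNA (log2 fold change -1.19, standard error 0.0597, adjusted p = 2.19e-13).

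Of the inhibitors, *USP18* rose in both manipulated groups and *SOCS1* passed after siRNA. *SOCS1*, a suppressor that binds JAK kinases and marks them for degradation, had the fewest counts of all members. It had 52, 36 and 39 counts after overexpression, 88, 77 and 80 after siRNA, and 36, 36 and 43 in the control. Scaled to depth, this is 2.99, 2.06 and 2.26 CPM after overexpression, 5.25, 4.61 and 4.66 CPM after siRNA, and 2.06, 2.10 and 2.51 CPM in the control. All siRNA libraries were above all others, and the overexpression and control libraries overlapped. *SOCS1* rose after siRNA (log2 fold change 1.12, standard error 0.171, adjusted p = 9.41e-06, edgeR). After overexpression its change was 0.13 with a 95% interval of -0.27 to 0.53 (adjusted p = 0.595), and at this depth a change of that size was not detectable. Without overexpression replicate 1 the sign turned (-0.04, adjusted p = 0.897).

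*USP18*, the isopeptidase that removes ISG15 from proteins and binds IFNAR2, changed more than any other member in both comparisons with the control. It had 113, 113 and 111 CPM after overexpression, 217, 236 and 214 CPM after siRNA, and 26.3, 29.1 and 18.2 CPM in the control. The 3 groups were far apart, and the lowest control library was replicate 3. *USP18* rose by 2.20 on the log2 scale after overexpression (4.59-fold, standard error 0.117, adjusted p = 6.22e-09, edgeR), which placed it at rank 102 of 12721 genes by size of rise. It rose by 3.18 after siRNA (9.06-fold, standard error 0.117, adjusted p = 1.59e-11), at rank 183. The ratio of *USP18* to *IFNAR2* in FPKM was 9.84, 10.1 and 10.7 in the overexpression libraries, 9.71, 10.2 and 10.1 in the siRNA libraries, and 1.70, 2.06 and 1.30 in the control libraries. The manipulated groups overlapped in this ratio although both of its genes differed between them.

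**Figure D4:**
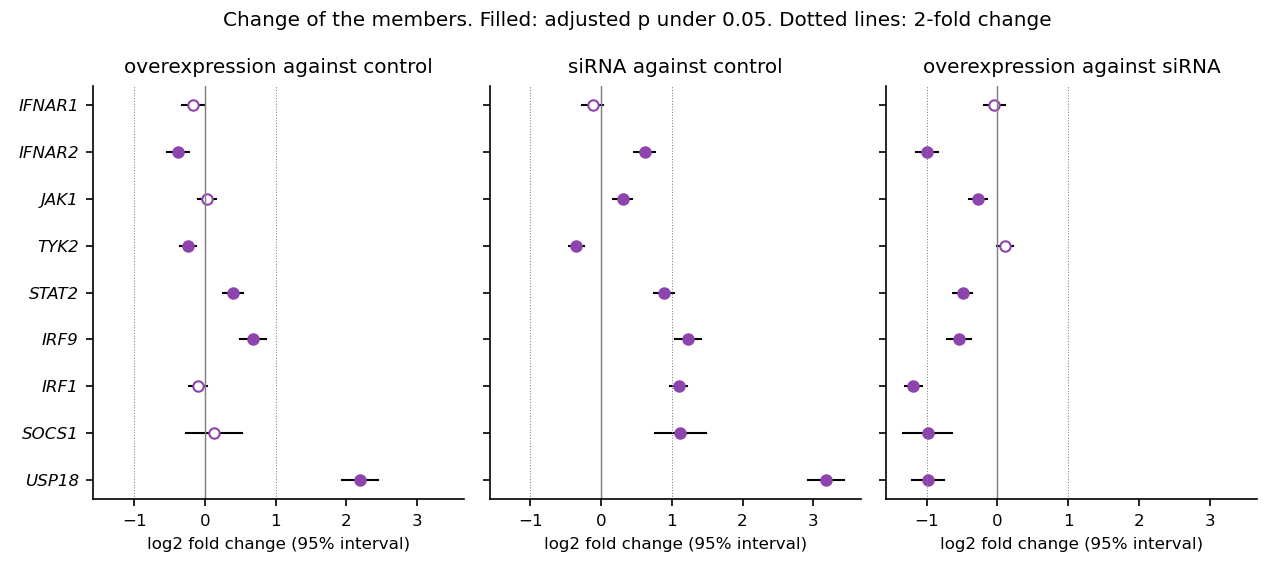
Log2 fold changes of the members with 95% intervals in the 3 comparisons, each named group over the one after it, with filled points for an adjusted p under 0.05. *USP18* lies farthest to the right in both comparisons with the control, and 7 filled points lie to the left of 0 where overexpression is set against siRNA.

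Set directly against each other, the manipulated groups differed in 7 members, all lower after overexpression than after siRNA, where 33.9% of tested genes were lower and 32.8% higher. Only *IRF1* differed by 2-fold or more, as 9.17% of tested genes did in that direction and 9.54% in the other. The libraries did not overlap for 8 members, 1 higher and 7 lower, beside 35.9% and 36.6% of tested genes. On the log2 scale *IFNAR2* differed by -0.997 (standard error 0.0727, adjusted p = 1.13e-10 from edgeR), *SOCS1* by -0.99 (adjusted p = 2.77e-05) and *USP18* by -0.98 (adjusted p = 1.34e-06). *IRF9* stood at -0.55, *STAT2* at -0.49 and *JAK1* at -0.28 (adjusted p = 9.44e-06, 1.56e-06 and 0.000594). *IFNAR1* did not pass (-0.04, 95% interval -0.20 to 0.11, adjusted p = 0.618). *TYK2* did not pass either (0.11, adjusted p = 0.0714), although its 3 overexpression libraries all lay above its 3 siRNA libraries. It passed with the 2 compared groups only (adjusted p = 0.0437) and without control replicate 1 (0.0395).

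Of 46 further JAK-STAT genes listed, 40 were in the table and 32 were tested. After overexpression 9 rose, 8 fell and 15 did not pass, with a median log2 fold change of 0.01, and after siRNA 16 rose, 7 fell and 9 did not pass, with a median of 0.18. The counts after overexpression were near those of all tested genes, of which 23.9% were higher and 23.4% lower, and after siRNA 29.5% of all tested genes were higher and 29.9% lower. With the overexpression libraries summed to 1, 6 rose and 5 fell after overexpression. *IRF7*, the interferon regulatory factor that amplifies interferon production, had 46.3, 44.3 and 45.4 CPM after overexpression, 151, 171 and 139 CPM after siRNA, and 23.3, 29.5 and 23.0 CPM in the control. It rose by 0.84 after overexpression and by 2.61 after siRNA (adjusted p = 5.42e-07 and 1.51e-15, edgeR). *SOCS3*, the feedback inhibitor of interleukin 6 signalling, fell after overexpression (log2 fold change -0.50, adjusted p = 9.52e-06) and rose after siRNA (0.32, adjusted p = 0.000409). In the SOCS family without *SOCS1*, 0 of 7 rose and 2 fell after overexpression, and 4 rose and 0 fell after siRNA, where the same shares of all tested genes apply and 7 genes are few to set against them. *GHR*, the growth hormone receptor, which signals through JAK2, fell after siRNA (-1.26, adjusted p = 1.22e-08, edgeR). For *GHR*, 2 control counts were estimates that were not whole (190.98 and 176.99). *PTPN6*, a phosphatase best known from blood cells, rose after siRNA (0.94, adjusted p = 0.00807) at a mean of 1.21 CPM.

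**Figure D5:**
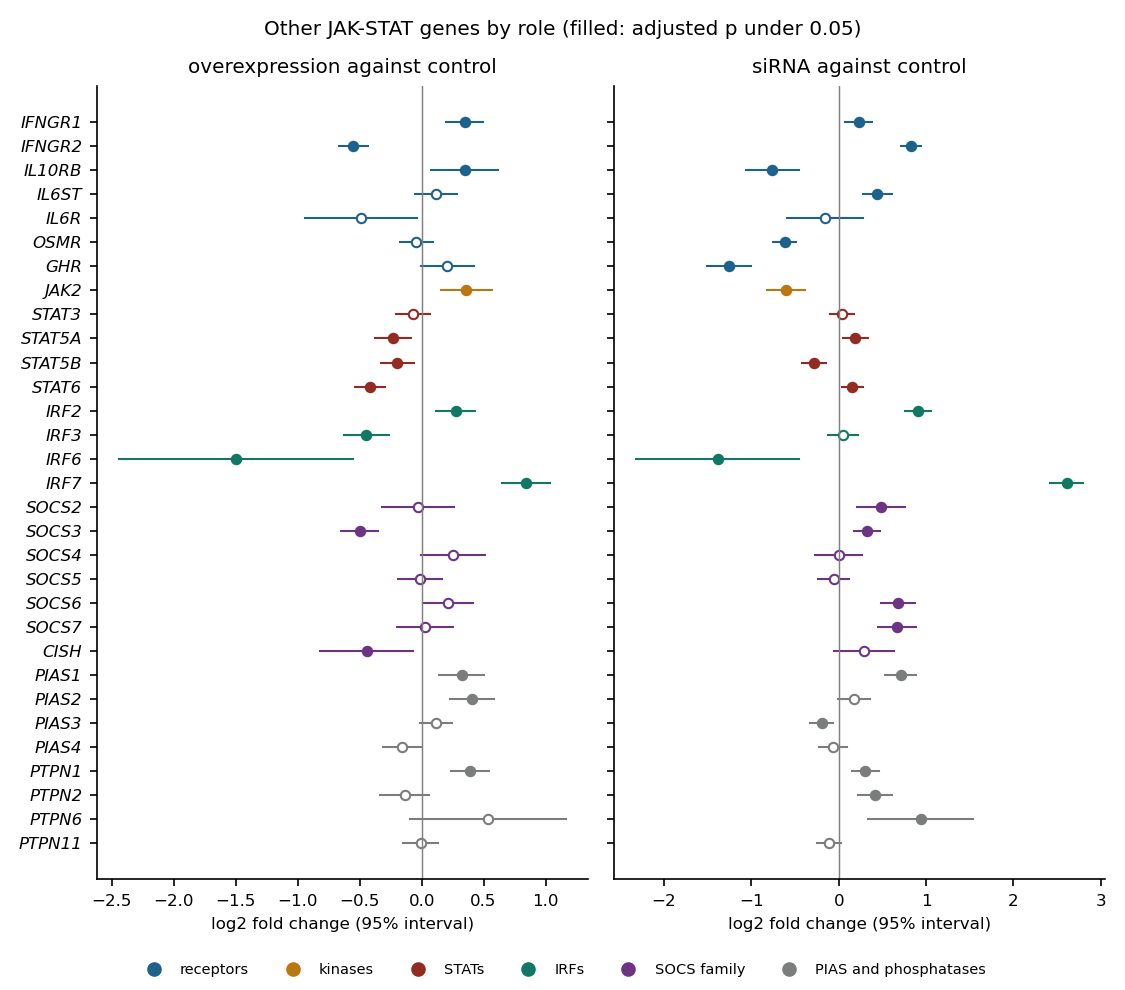
Log2 fold changes with 95% intervals of other tested JAK-STAT genes (1 of the 32 is not shown), coloured by role, after overexpression and after siRNA, each against control, with filled points for an adjusted p under 0.05. Of the genes shown, *IRF7* lies farthest to the right in both panels.

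Of 7 listed interferon genes, 2 could be read from the table, and the other 5 were not analysed here. *IFNB1*, which encodes interferon beta, had 1 count over the overexpression libraries, 5 over the siRNA libraries and 0 over the control libraries, and *IFNE*, which encodes interferon epsilon, had 1, 41 and 5. Both were under the expression filter and were not tested. Of 28 listed interferon-stimulated genes, 26 were tested, of which 25 rose and 0 fell after overexpression and 26 rose after siRNA, with median log2 fold changes of 3.02 and 4.07. Of all tested genes, 23.9% were higher and 23.4% lower after overexpression, and 29.5% were higher and 29.9% lower after siRNA. The interferon-stimulated genes summed to 3571 to 3612 CPM in the overexpression libraries, 7582 to 8024 CPM in the siRNA libraries and 337 to 514 CPM in the control libraries. *STAT2*, *IRF9* and *USP18* stood in this order of groups too, at smaller changes than these medians.

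Macrophage markers moved with the overexpression group. Of 22 listed, 17 were tested, of which 13 rose and 1 fell after overexpression, and 2 rose and 2 fell after siRNA. The 22 summed to 203 to 209 CPM in the overexpression libraries, 96.4 to 100 CPM in the siRNA libraries and 116 to 121 CPM in the control libraries. *CD163*, *C1QA*, *C1QB*, *SIGLEC1*, *ADGRE1*, *PTPRC* and *TREM2* had no count in the control, and *CD163*, *C1QB*, *C1QC*, *MSR1*, *MARCO*, *ADGRE1* and *PTPRC* had none after siRNA. After overexpression, the 7 without a control count averaged from 0.480 CPM (*TREM2*) to 4.94 CPM (*C1QA*). Most of each sum came from *CD86*, at 124 ± 2.54 CPM after overexpression, 32.3 ± 1.30 CPM after siRNA and 66.9 ± 8.85 CPM in the control, and from *CD14*, at 27.3 ± 1.76, 47.2 ± 3.85 and 36.7 ± 4.76 CPM in these groups (SD, n = 3 each). After siRNA *CD14* and *TYROBP* rose, *CD86* and *MRC1* fell, and 13 of the 17 did not pass, so the sum does not follow the list as a whole. The part of such cells in the members' levels was not tested in either manipulated group. Of 13 lymphocyte markers 1 was tested and did not pass, with sums of at most 4.53 CPM, and of 10 endothelial markers 2 were tested, of which 1 fell after overexpression and 2 after siRNA. Of 14 tested preadipocyte and fibroblast markers, 3 rose and 11 fell after overexpression, and 8 rose and 4 fell after siRNA. Of 10 tested adipocyte markers, 3 rose and 2 fell after overexpression, and 2 rose and 6 fell after siRNA. Beside all these marker counts, 23.9% of tested genes were higher and 23.4% lower after overexpression. After siRNA 29.5% were higher and 29.9% lower. The adipocyte counts after overexpression were near those shares, and all these lists are short.

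For each member that changed at least 2-fold against the control, the 2 genes nearest to it were sought over the 9 libraries. The measure was the root mean square difference of log2 CPM, centred on the control mean. A small constant was added to CPM before the logarithm, which shrinks changes at low levels such as those of *SOCS1*. *USP18* was nearest to *IFI44L* (0.177) and *PARP9* (0.219), both interferon-stimulated genes. *IRF1* lay closest to the adhesion molecule gene *JAM2* (0.0561) and to *CRISPLD2* (0.0701), which shared its rise after siRNA (log2 fold changes 1.04 and 1.04) and its level near that of the control after overexpression (-0.12 and -0.16). *IRF9* was nearest to *DUSP5* (0.145), a phosphatase that acts on ERK, and *PSMF1* (0.149), which encodes a proteasome inhibitor. *SOCS1* was nearest to *OGFR* and *PRDX6* (0.125 each). This distance grows with the size of a change and with the spread of the control libraries, so it is not compared between members.

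Some members share their place in the genome with other genes. In the same RefSeq table *STAT2* overlaps *IL23A*, *JAK1* overlaps *RAVER2* and the microRNA gene *MIR101-2*, *IRF1* overlaps *SLC22A5*, and *IFNAR2* overlaps *LOC110256370*, for which no value was used here. The counts are not stated to use strand. *IL23A* had 0 CPM after overexpression and in the control and 0.0986 CPM after siRNA, and *RAVER2* had 0.557, 1.56 and 1.08 CPM in the overexpression, siRNA and control groups. *SLC22A5*, a carnitine transporter gene, had 6.03 ± 0.522 CPM after overexpression, 19.2 ± 1.01 CPM after siRNA and 5.97 ± 0.0804 CPM in the control (SD, n = 3 each), so it was high in the same libraries as *IRF1*. Whether these genes share reads was not tested.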

How the data were processed

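The 9 libraries of 3 groups were sequenced, and groups were taken from the sample labels. The authors checked reads with FastQC, aligned them with HISAT and deposited estimated counts and FPKM values for 16562 genes in 18 columns, each matched to a sample by title. The sources used here name no counting tool, genome build, annotation or strand setting. Estimated counts were rounded, since 5.38% had decimals.

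Counts were scaled by TMM factors (0.974 to 1.03). After edgeR's default filterByExpr step 12721 genes were tested with edgeR 4.0.16 under R 4.3.3, by the robust quasi-likelihood F test with group as the only term, and p-values were adjusted over all tested genes by Benjamini-Hochberg. The biological coefficient of variation was 0.0607. Each standard error was obtained from the log2 fold change and its F value. The order of the members' levels and the ratios between members use deposited FPKM. Sums over gene lists, and the part of a gene in them, are in CPM, which is not scaled by gene length. The fit was tested on simulated data in which each gene had the same spread in all groups. That test therefore does not cover the unequal spread of the groups given above.

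The members and lists were chosen with earlier results of these data known. The text names every member, *STAT3*, up to 4 other JAK-STAT genes per comparison with the control with the largest change that passed at a mean of at least 1 CPM, and for each member changed 2-fold the 2 nearest genes with a symbol, whole counts and a mean of at least 5 CPM. *IL10RB*, *IFNB1*, *IFNE*, the overlapping genes and the markers named lie outside this rule and were picked with their values in view. For 1 gene that the rule names, results are not reported here.

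Alternatives were DESeq2 1.42.0, library totals, RLE factors, no filter, at least 1 CPM in 3 libraries, fits of the compared groups, the exact test of edgeR, a replicate block, limma 3.58.1 on log2(FPKM + 1) and log2(FPKM + 0.1), a 2-fold threshold and each library left out. The overexpression libraries summed to 1 were added after the data were seen.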

Additional observations from a re-analysis of the deposited data

How the results depend on the processing

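The 27 member results (9 genes in 3 comparisons) were recomputed under up to 20 alternatives, 531 values in all, and 522 kept their direction and their side of the threshold. Of the others, 1 no longer passed and 4 passed newly, all given with the results. The sign turned for *IFNAR1* in overexpression against siRNA without overexpression replicate 2 (log2 fold change 0.0069) and without siRNA replicate 1 (0.0083, range with 1 library left out -0.0900 to 0.0083), for *JAK1* after overexpression without control replicate 3 (-0.0246, range to 0.0863) and for *SOCS1* after overexpression without overexpression replicate 1 (-0.0399, range to 0.240), none of which passed before or after. With a 2-fold threshold added, 1 member changed after overexpression, 4 after siRNA and 1 between the manipulated groups, and of the other JAK-STAT genes 2, 4 and 4 did. With the overexpression libraries summed to 1, 11 other JAK-STAT genes changed after overexpression, against 17. With 1 library left out at a time, 5 to 6, 8 to 9 and 7 to 8 members changed in the 3 comparisons, and 13 to 19, 20 to 26 and 20 to 23 of the other JAK-STAT genes. The deviations of same-numbered libraries of 2 groups were weakly correlated across genes (-0.11 to 0.178). With 3 libraries per group this cannot settle whether the numbers pair samples. With the replicate block the member counts stayed at 5, 8 and 7. No scaling moved the median of all genes by over 0.1. Depth limits *SOCS1* most, at 36 to 88 counts per library.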
